A study of Mus musculus with 4 samples.

Results

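The miR-106b/miR-25 cluster is a group of 3 microRNA (miRNA) hairpins, miR-106b, miR-93 and miR-25, carried by an intron of Mcm7, the gene for a subunit of the helicase that unwinds DNA at replication forks. Its members are the 5p and 3p mature miRNAs of each hairpin, taken by name: 6 of the 1907 mature mouse miRNAs listed. They were measured by small RNA-seq in 4 libraries, each made from RNA pooled over 3 sets of experiments, so that no value has a replicate error. All cells came from E14Tg2A, a mouse embryonic stem (ES) cell line of strain 129/Ola. "ES serum" cells were kept in 10% fetal calf serum with leukemia inhibitory factor (LIF). "ES 2iL" cells were switched to serum-free medium with LIF, the MEK inhibitor PD0325901 at 1 µM and the GSK3 inhibitor CHIR99021 at 3 µM, a medium that holds ES cells in ground-state pluripotency. "ELA serum" and "ELA 2iL" are epiblast-like aggregates (ELA), a model of the primed state, obtained from those respective ES cells by floating culture for 2 days in a chemically defined medium that lacks LIF. The medium in an ELA name is thus that of the ES cells before aggregation.

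A miRNA hairpin is cut from its primary transcript by Drosha and then by Dicer, which leaves a duplex of a 5p and a 3p strand. Argonaute keeps mainly one strand, the guide, which pairs with mRNAs through its seed near the 5′ end, while the passenger strand is mostly lost. The 5p strands of miR-106b and miR-93 are known repressors of the cell cycle inhibitor Cdkn1a and of the TGF-β receptor Tgfbr2, and miR-25-3p of the pro-apoptotic gene Bcl2l11. In pluripotent cells the cluster is known with its paralogs, miR-17/miR-92a and miR-106a/miR-363, and with the clusters miR-290/miR-295 and, in the primed state, miR-302/miR-367, which carry related seeds.

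In the mm9 build the 3 hairpins spanned 498 bases of the minus strand, chr5:138606549-138607046. They lay inside Mcm7 (chr5:138605811-138613650) in the order miR-106b (chr5:138606965-138607046), miR-93 (chr5:138606751-138606838) and miR-25 (chr5:138606549-138606632) along the transcript. All 3 were within intron 13 of the protein-coding transcript with 15 exons, an intron of 748 bases, and outside its coding and untranslated exons. A transcript annotated as a retained intron has an exon that overlaps the miR-93 and miR-25 hairpins. The mature sequences follow, since the shared seeds set which other miRNAs the cluster is compared with. Capitals mark the seed (bases 2 to 8 from the 5′ end), and the sequences are RefSeq's.
mmu-miR-106b-5p: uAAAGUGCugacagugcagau
mmu-miR-93-5p: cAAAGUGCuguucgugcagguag
mmu-miR-25-3p: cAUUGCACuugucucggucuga
mmu-miR-106b-3p: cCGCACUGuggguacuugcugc
mmu-miR-93-3p: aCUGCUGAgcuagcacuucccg
mmu-miR-25-5p: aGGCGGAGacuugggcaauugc
The first 2 sequences share the seed AAAGUGC, and the third has AUUGCAC. The 3 strands below them each carry a seed of their own. Every one of the 6 sequences had 1 exact match in mm9, on the minus strand within its hairpin. The closest other listed miRNAs were mmu-miR-17-5p and mmu-miR-20b-5p for mmu-miR-93-5p, at an edit distance of 3 bases, and mmu-miR-92a-3p for mmu-miR-25-3p, at 4 bases. The remaining 4 members were 5 to 8 bases from any other listed miRNA with a RefSeq sequence. The number of mismatches allowed in mapping is not given in the sources used here, and an exchange of reads within such a pair was not tested.

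The libraries held between 587363 reads (ELA 2iL) and 8056984 reads (ES serum) on listed miRNAs, a 13.7-fold range of depth. Values are such reads scaled to a total of 1000000 (RPM), a share of the miRNA reads of a library and not an amount per cell. In bulk RNA, fewer cells that express a miRNA and less of it per cell cannot be told apart. One field of the labels exchanges ES 2iL and ELA serum, whereas the titles, source names, stage and medium labels and column names name the same libraries and were followed here. Under the exchanged names the stage and medium differences reported for the cluster would trade places, and the primed-state and ES-cell sums given next would go from 5222 to 67.6 RPM and from 61648 to 142214 RPM between ES cells and ELA in serum. Of the miRNAs used to check the states, the 4 primed-state miRNAs (miR-302a, miR-302b, miR-302d and miR-367, 3p arms) summed to 5222 RPM in ES serum, 32895 RPM in ELA serum, 67.6 RPM in ES 2iL and 5549 RPM in ELA 2iL. By the titles they were higher in ELA than in ES cells in both media, and higher in serum than in 2iL at both stages. The 4 ES-cell miRNAs of the miR-290/miR-295 cluster summed to 61648 RPM in ES serum, 41028 RPM in ELA serum, 142214 RPM in ES 2iL and 109569 RPM in ELA 2iL, with mmu-miR-292a-3p at 0 in each library. The 4 lineage miRNAs summed to between 263.9 and 426 RPM. Nearly all of it came from the neural mmu-miR-9-5p, at 156 to 356 RPM, and mmu-miR-124-3p, at 44.3 to 142 RPM, both detected in each library, with mmu-miR-122-5p at 0 and mmu-miR-1a-3p at 1.70 RPM or less. These miRNAs move with stage and medium, and their part in the differences of the cluster was not tested.

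Every member was detected in every library, with 45 reads or more. Together they took 1.23% of the miRNA reads in ES serum (Wilson 95% interval 1.22 to 1.24%) and 1.24% in ELA serum (1.23 to 1.25%), compared with 2.35% in ES 2iL (2.33 to 2.37%) and with 1.53% in ELA 2iL (1.50 to 1.56%). ES 2iL was thus the highest library and ELA 2iL the next, while the intervals of both serum libraries overlapped. These and all later intervals cover counting error only.

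miR-25-3p, the guide of its hairpin, was the most level member in RPM: 8707 RPM in ES serum, 9174 RPM in ELA serum, 10675 RPM in ES 2iL and 9180 RPM in ELA 2iL. It ranked between 15 and 22 among all miRNAs of a library, and the RPM values of both ELA libraries could not be told apart at this depth, whereas TMM and DESeq2 size factors set ELA 2iL below ELA serum, by log2 differences of -0.35 and -0.36. miR-93-5p, also a guide strand, stood at 2778 RPM in ES serum, 2274 RPM in ELA serum, 11258 RPM in ES 2iL and 4486 RPM in ELA 2iL. Its order was ES 2iL, ELA 2iL, ES serum and ELA serum, and it moved between rank 21 in ES 2iL and rank 46 in ELA serum. miR-106b-5p was less abundant, at 410 RPM in ES serum, 519 RPM in ELA serum, 915 RPM in ES 2iL and 1112 RPM in ELA 2iL. Here, too, both 2iL libraries lay above both serum libraries, but ELA 2iL was the highest.

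The other 3 strands were the rarer arms. miR-106b-3p lay at 281 RPM in ES serum, 376 RPM in ELA serum, 330 RPM in ES 2iL and 293 RPM in ELA 2iL. In RPM, ELA was above ES cells in serum and below them in 2iL. Likewise, 2iL was above serum in ES cells and below it in ELA. miR-93-3p, the passenger of miR-93, had 36.9 RPM in ES serum, 25.5 RPM in ELA serum, 166 RPM in ES 2iL and 76.6 RPM in ELA 2iL. It kept the library order of miR-93-5p at a far lower level. miR-25-5p, the passenger of miR-25, was at 111 RPM in ES serum, 75.2 RPM in ELA serum, 142 RPM in ES 2iL and 141 RPM in ELA 2iL, and its intervals in ES 2iL and ELA 2iL overlapped.

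**Figure D1:**
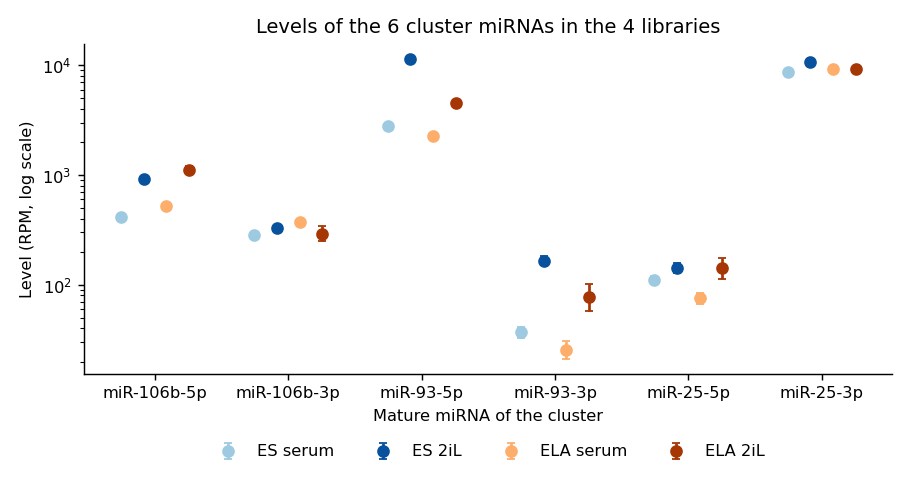
Level of each of the 6 mature miRNAs (RPM, log axis) in each of the 4 libraries, with Wilson 95% counting intervals. miR-25-3p sits between 8707 and 10675 RPM throughout, whereas miR-93-5p ranges from 2274 RPM in ELA serum to 11258 RPM in ES 2iL.

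The first comparison asked which miRNAs of the cluster differ at the ES–ELA transition, the step from the ES cell to the primed state. In cells from 2iL, the miR-93 strands were lower in ELA: miR-93-5p went from 11258 to 4486 RPM, a log2 difference of -1.33 (exact 95% interval -1.39 to -1.27), and miR-93-3p from 166 to 76.6 RPM, a difference of -1.11 (-1.59 to -0.67). In cells from serum, the same strands differed by -0.29 (-0.32 to -0.25) and -0.51 (-0.86 to -0.21). The sign was the same in both media, and the difference in serum was smaller. In serum, miR-93-5p was at -0.18 under TMM scaling, -0.09 under DESeq2 size factors and -0.36 with totals without the 5 most abundant miRNAs, each outside its counting interval. The difference of miR-106b-5p was 0.34 in serum and 0.28 in 2iL, which is above 0 in both media. miR-25-3p differed by 0.08 in serum and -0.22 in 2iL, so that the signs were opposite. The differences of miR-106b-3p were 0.42 and -0.17, and those of miR-25-5p -0.56 and -0.004, in serum and 2iL, with the second interval including 0 for each of them. The signs in 2iL of miR-25-3p, miR-106b-3p and miR-25-5p turned under TMM scaling, DESeq2 size factors and totals without the 5 most abundant miRNAs.

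A pair of libraries was counted as past the fold limit for a miRNA whose log2 difference reached 1 in either direction while its log2(RPM + 1) averaged 5 or more over the pair. In 2iL, 2 of the 6 members (miR-93-5p and miR-93-3p) were past it as lower in ELA, against 25.2% of the 314 miRNAs at that level, and 0 as higher, against 15.3%. miR-93-3p was no longer past it under TMM, DESeq2 size factors and totals without the 5 most abundant miRNAs (-0.86, -0.88 and -0.86), which left 1 of the 6 members, against 18.2% of the same miRNAs in each of these scalings. In serum, 0 of the 5 members at that level were lower, against 14.6% of 288 miRNAs, and 0 were higher, against 8.33%. miR-93-3p was just under the level in the serum pair. The median member differed by -0.11 in serum and by -0.19 in 2iL, beside medians of 0.004 and -0.17 over all expressed miRNAs, those averaging 5 or more on this scale over the 4 libraries.

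With both media in a single limma fit on log2(RPM + 1), the stage contrast (ELA minus ES) was -0.81 ± 0.50 (SE) for miR-93-5p, -0.81 ± 0.46 for miR-93-3p, -0.28 ± 0.46 for miR-25-5p, -0.07 ± 0.44 for miR-25-3p, 0.12 ± 0.46 for miR-106b-3p and 0.31 ± 0.44 for miR-106b-5p. No member passed, with Benjamini-Hochberg adjusted p between 0.338 and 0.937 in limma. limma called 0 of the 599 miRNAs tested (0%), with 125 at an unadjusted p under 0.05, whereas edgeR called 39 and DESeq2 50 of them, none a member. The count of limma itself moved with the settings, to 45 under TMM, 89 with totals without the 5 most abundant miRNAs and 9 with a pseudocount of 5 RPM, and to 99 of 1202 without the filter, again with no member among them. The fit has 1 residual degree of freedom, the dependence of stage on medium.

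The second comparison set 2iL against serum. In ES cells, miR-93-5p was 4.05-fold higher in 2iL than in serum (2778 and 11258 RPM), a log2 difference of 2.02 (exact 95% interval 1.99 to 2.04). miR-93-3p was 4.51-fold higher, with a log2 difference of 2.14 (1.96 to 2.39), and miR-106b-5p 2.23-fold higher, with a log2 difference of 1.15 (1.08 to 1.23). Folds are plain ratios of RPM, whereas log2 differences are of log2(RPM + 1). The log2 differences of the rare miR-93-3p are thus somewhat smaller than its folds. The other members were closer to equal, with log2 differences of 0.34 for miR-25-5p, 0.29 for miR-25-3p and 0.23 for miR-106b-3p. Over the expressed miRNAs the median difference in ES cells was 0.44 on this scale, so that these 3 members lay below the median miRNA, and their signs turned under TMM scaling and DESeq2 size factors. Relative to that median, miR-93-5p was higher by 1.58, miR-93-3p by 1.71 and miR-106b-5p by 0.72.

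In ELA, which had been 2 days out of either medium, miR-106b-5p was 2.14-fold higher after 2iL (519 and 1112 RPM), a log2 difference of 1.10 (0.97 to 1.23), close to its difference in ES cells. miR-93-5p was 1.97-fold higher, a log2 difference of 0.98 (0.92 to 1.04), which is just under the fold limit. Its difference was 0.63 under TMM, 0.62 under DESeq2 size factors and 1.02 with totals without the 5 most abundant miRNAs. miR-93-3p was 3.00-fold higher in plain RPM, with a difference of log2(RPM + 1) of 1.55 (1.05 to 2.10). The log2 differences were 0.90 for miR-25-5p, 0.001 for miR-25-3p and -0.36 for miR-106b-3p. Under TMM they were 0.56, -0.35 and -0.71, and DESeq2 size factors gave 0.54, -0.36 and -0.72, so that the sign of miR-25-3p turned. The median of the expressed miRNAs was 0.37 in ELA, and relative to it miR-25-3p and miR-106b-3p stood at -0.37 and -0.73.

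Past the fold limit as higher in 2iL were 3 of the 6 members in ES cells (miR-93-5p, miR-93-3p and miR-106b-5p), against 32.9% of 310 miRNAs, and 2 in ELA (miR-93-3p and miR-106b-5p), against 20.9% of those at that level. As lower in 2iL, 0 members were past it, against 14.8% in ES cells and 8.94% in ELA. Under TMM scaling and DESeq2 size factors, miR-106b-5p was no longer past the limit at either stage, with log2 differences of 0.67 and 0.76 in ES cells and 0.75 and 0.74 in ELA. That left 2 members in ES cells, against 18.7% and 20.6% of all miRNAs at that level, and 1 in ELA, against 12.3% and 11.6%. With totals without the 5 most abundant miRNAs there were 2 in ES cells, against 25.5%, and 3 in ELA, against 23.5%.

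**Figure D2:**
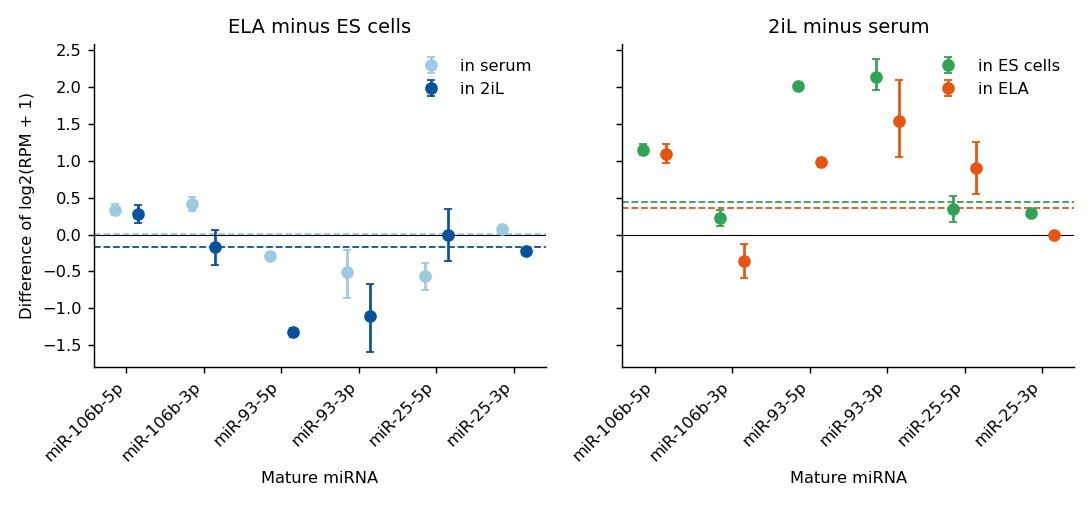
Difference of log2(RPM + 1) for each member, ELA minus ES cells in each medium (left) and 2iL minus serum at each stage (right), with exact 95% counting intervals. Dashed lines are the medians of all expressed miRNAs in the same pair of libraries. The largest differences are -1.33 for miR-93-5p in 2iL at the left and 2.14 for miR-93-3p in ES cells at the right.

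The medium contrast of the limma fit (2iL minus serum) was 1.85 ± 0.46 (SE) for miR-93-3p, 1.50 ± 0.50 for miR-93-5p, 1.13 ± 0.44 for miR-106b-5p, 0.62 ± 0.46 for miR-25-5p, 0.15 ± 0.44 for miR-25-3p and -0.07 ± 0.46 for miR-106b-3p. The lowest adjusted p in limma was 0.114 (miR-93-3p), followed by 0.144 (miR-93-5p) and 0.172 (miR-106b-5p), so that no member passed. Again limma called 0 of 599 miRNAs (0%), with 176 at an unadjusted p under 0.05, 2 of them members (miR-93-3p and miR-93-5p). edgeR called 64 and DESeq2 80, and limma 74 under TMM and 38 with a pseudocount of 5 RPM, none a member. miR-93-3p passed in 2 alternatives, with a limma adjusted p of 0.0171 without the filter on low counts and 0.0323 with totals that leave out the 5 most abundant miRNAs. In the same fits limma called 10.8% of 1202 and 18.2% of 599 miRNAs, beside 1 of the 6 members. The adjusted p of miR-93-3p over all alternatives ranged up to 0.152. The median member contrast was 0.87, beside 0.42 over the expressed miRNAs. Scaling decides that median: it was 0.004 under TMM and 0.04 under DESeq2 size factors, where miR-93-5p still had a contrast of 1.08 and 1.12 and miR-25-3p turned to -0.27 and -0.23.

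Ratios between members of a library do not depend on its total. There were 0.319 reads of miR-93-5p for each read of miR-25-3p in ES serum (exact 95% interval 0.314 to 0.324) and 0.248 in ELA serum (0.242 to 0.253), compared with 1.05 in ES 2iL (1.04 to 1.07) and with 0.489 in ELA 2iL (0.466 to 0.512). The guide strands of 2 hairpins in 1 intron thus had nearly equal reads in ES 2iL, while miR-25-3p had more in the other libraries. Whether different sequences are recovered alike as reads was not tested, so that equal reads need not be equal amounts. The ratio was 3.31-fold higher in 2iL than in serum in ES cells (Wald 95% interval on the log scale 3.23 to 3.38) and 1.97-fold higher in ELA (1.87 to 2.08). It was 2.16-fold lower in ELA than in ES cells from 2iL, and 1.29-fold lower in those from serum.

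miR-106b-5p was also higher against miR-25-3p in 2iL, by 1.82-fold in ES cells (1.72 to 1.92) and 2.14-fold in ELA (1.95 to 2.35). Set against each other, miR-93-5p and miR-106b-5p, which share a seed, gave ratios of 6.77 in ES serum, 4.38 in ELA serum, 12.3 in ES 2iL and 4.04 in ELA 2iL. This ratio was 1.82-fold higher in 2iL in ES cells, whereas in ELA the interval of the fold, 0.835 to 1.01, included equality. With both arms counted, the miR-25 hairpin gave 71.5% of the reads of the cluster in ES serum, 74.3% in ELA serum, 46.1% in ES 2iL and 61.0% in ELA 2iL. The miR-93 hairpin gave 22.8%, 18.5%, 48.6% and 29.8%, and the miR-106b hairpin 5.61%, 7.19%, 5.30% and 9.19%, in the same order. ES 2iL was the sole library in which miR-93 gave more reads than miR-25.

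**Figure D3:**
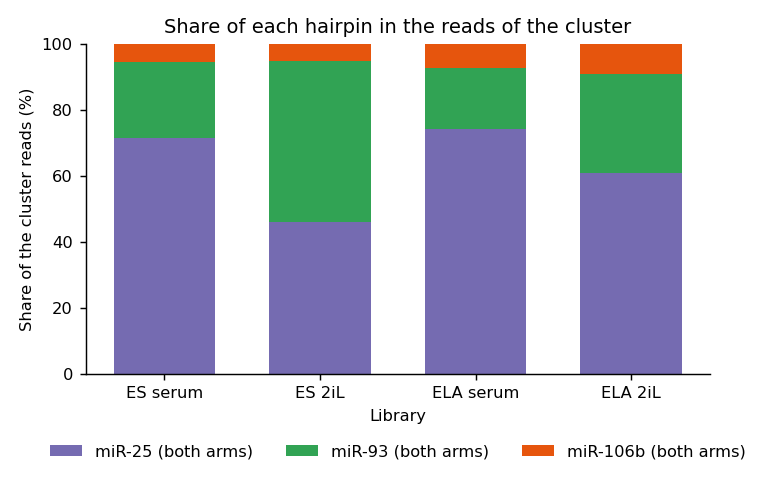
Share of the reads of the cluster (%) that came from each hairpin, 5p and 3p arms added, in each library. miR-93 makes up 48.6% in ES 2iL and between 18.5 and 29.8% in the other libraries.

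miR-106b gave a sizeable share of its reads from each arm, whereas miR-93 and miR-25 gave nearly all of theirs from 1 arm. The 5p arm of miR-106b took 59.3% of the reads of its hairpin in ES serum (exact 95% interval 58.0 to 60.6%) and 58.0% in ELA serum (56.4 to 59.5%), compared with 73.5% in ES 2iL (72.0 to 75.0%) and with 79.2% in ELA 2iL (76.2 to 81.9%). The intervals of both serum libraries overlapped, and both 2iL libraries lay above them. The 5p to 3p ratio was 1.90-fold higher in 2iL in ES cells (1.73 to 2.09) and 2.75-fold higher in ELA (2.30 to 3.29). Between ELA and ES cells it was 1.37-fold higher in 2iL (1.14 to 1.64), and in serum the interval of the fold, 0.870 to 1.03, included equality.

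For miR-93 the 5p arm took 98.7% in ES serum, 98.9% in ELA serum, 98.5% in ES 2iL and 98.3% in ELA 2iL. Its 5p to 3p ratio was lower after 2iL in ELA, by 1.52-fold (1.07 to 2.16), and in ES cells the interval of the fold, 0.776 to 1.04, included equality. For miR-25 the 3p arm took 98.7% in ES serum, 99.2% in ELA serum, 98.7% in ES 2iL and 98.5% in ELA 2iL. Its 5p share was lowest in ELA serum, at 0.813% (0.727 to 0.906%), against 1.26% (1.18 to 1.35%) in ES serum, the nearest library.

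In a limma fit of the log2 5p to 3p ratio over the 196 hairpins with both arms counted, a test added after the data had been seen, the medium contrast of miR-106b was 1.19 ± 0.51 (SE), with a limma adjusted p of 0.0858, which is not past the threshold. It was -0.35 ± 0.51 for miR-93 (adjusted p = 0.697) and 0.47 ± 0.52 for miR-25 (adjusted p = 0.598). The same fit called 45 of the 196 hairpins, or 23%, for the medium. A contrast of at least 1 toward the 5p arm in 2iL was seen for 33 of the 196 hairpins, or 16.8%, miR-106b among them. For stage it called 4 hairpins (2.04%), and the adjusted p of the 3 hairpins of the cluster was between 0.910 and 0.996.

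**Figure D4:**
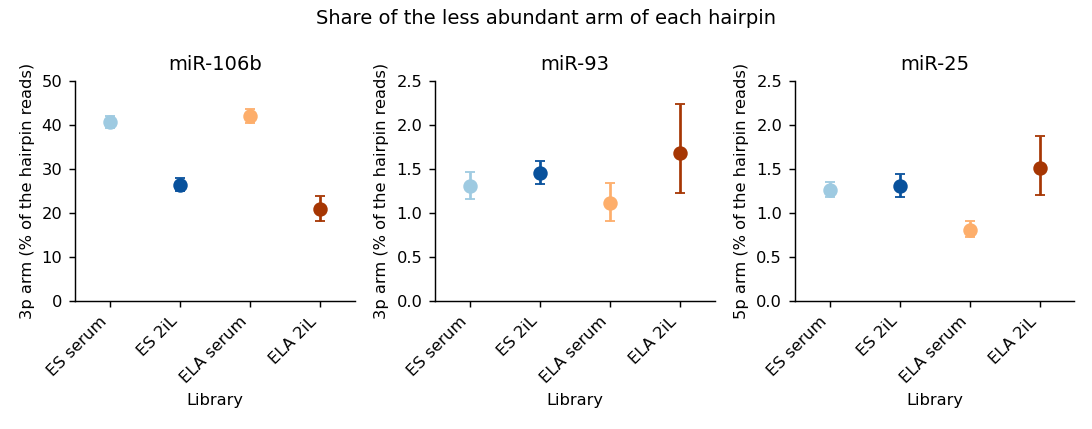
Share of the less abundant arm in the reads of each hairpin (%), with exact 95% intervals: the 3p arm of miR-106b and miR-93 and the 5p arm of miR-25, with a wider axis for miR-106b. The 3p share of miR-106b is 40.7 and 42.0% in the serum libraries and 26.5 and 20.8% in the 2iL libraries, while the rarer arm of the other hairpins stays between 0.813 and 1.68%.

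The seed AAAGUGC of miR-93-5p and miR-106b-5p was shared by 5 other listed miRNAs with a RefSeq sequence. They were miR-17-5p and miR-20a-5p of the miR-17/miR-92a cluster, miR-106a-5p and miR-20b-5p of the miR-106a/miR-363 cluster, and mmu-miR-6383, which was listed at 0 in each library. The paralogs with the nearest sequences are printed for comparison, with the seed in capitals.
mmu-miR-17-5p: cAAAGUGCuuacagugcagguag
mmu-miR-20a-5p: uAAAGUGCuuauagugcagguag
mmu-miR-20b-5p: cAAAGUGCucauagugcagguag
mmu-miR-106a-5p: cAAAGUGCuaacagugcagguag
The family as a whole stood at 6065 RPM in ES serum, 8544 RPM in ELA serum, 15326 RPM in ES 2iL and 14368 RPM in ELA 2iL, and miR-93-5p was its most abundant miRNA in each library. The 2 members of the Mcm7 cluster supplied 52.6% of the family in ES serum (exact 95% interval 52.1 to 53.0%) and 32.7% in ELA serum (32.2 to 33.2%), compared with 79.4% in ES 2iL (79.0 to 79.8%) and with 39.0% in ELA 2iL (37.9 to 40.0%). Their share was lower in ELA than in ES cells in both media, and higher in 2iL than in serum at both stages.

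Of the 2 cluster strands, only miR-93-5p was lower in ELA, by log2 differences of -0.29 in serum and -1.33 in 2iL. miR-106b-5p was higher in ELA in both media, and so was the summed rest of the family. Without the Mcm7 cluster the family summed to 2876 RPM in ES serum, 5751 RPM in ELA serum, 3153 RPM in ES 2iL and 8770 RPM in ELA 2iL. miR-20b-5p stood at 659 RPM in ES serum, 1824 RPM in ELA serum, 282 RPM in ES 2iL and 2150 RPM in ELA 2iL, and miR-106a-5p at 540, 1522, 275 and 1789 RPM in the same order. Both were higher in each ELA library than in each ES library, and lower in 2iL than in serum in ES cells, where miR-93-5p was higher. miR-17-5p had 838, 1227, 1481 and 2264 RPM in that order, and miR-20a-5p 838, 1179, 1115 and 2566 RPM. In ES 2iL the family was thus 73.5% miR-93-5p, whereas in ELA serum it was 26.6%, with miR-20b-5p next at 21.3%. Bases 3 to 9 of miR-93-5p and miR-106b-5p read AAGUGCU. The miRNAs with these as bases 2 to 8 include mmu-miR-294-3p, mmu-miR-295-3p, mmu-miR-302b-3p and mmu-miR-302d-3p. Listed miRNAs without a RefSeq sequence could not be compared. mmu-miR-295-3p alone, at 35327 to 126073 RPM, was more abundant than the whole AAAGUGC family in each library.

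**Figure D5:**
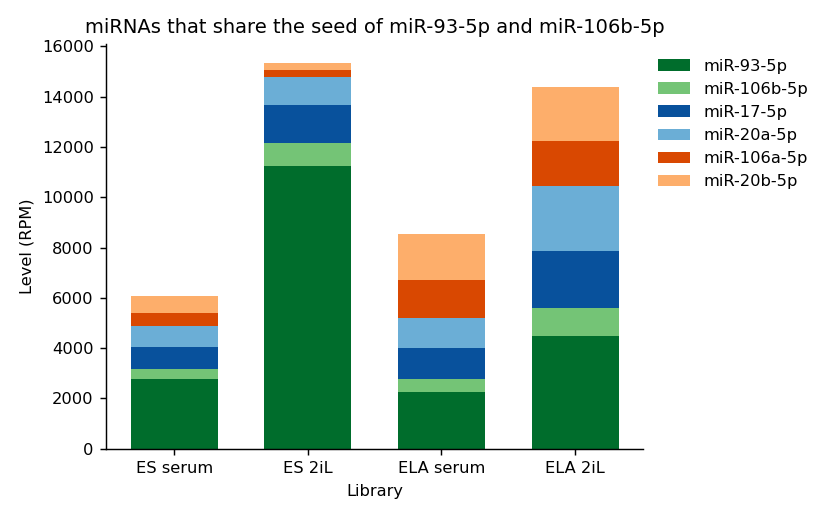
Level (RPM, stacked) of the 6 detected miRNAs with the seed of miR-93-5p and miR-106b-5p in each library. Both members of the Mcm7 cluster, in green, make up 79.4% of the 15326 RPM in ES 2iL and 32.7% of the 8544 RPM in ELA serum.

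The seed AUUGCAC of miR-25-3p was shared by miR-92a-3p, miR-92b-3p, miR-363-3p, miR-32-5p and miR-367-3p. This family made up 10.1% of the miRNA reads in ES serum, 9.14% in ELA serum, 9.45% in ES 2iL and 12.3% in ELA 2iL. miR-25-3p was its second miRNA in each library, with 8.62% of the family in ES serum (exact 95% interval 8.56 to 8.68%) and 10.0% in ELA serum (9.94 to 10.1%), compared with 11.3% in ES 2iL (11.2 to 11.4%) and with 7.45% in ELA 2iL (7.26 to 7.65%). miR-92a-3p, at 71866 to 107463 RPM, was the first. The miRNAs of lower abundance differed more between libraries than miR-25-3p did. miR-363-3p stood at 4160 RPM in ES serum, 8137 RPM in ELA serum, 1291 RPM in ES 2iL and 5108 RPM in ELA 2iL, and miR-92b-3p at 3745, 1940, 7698 and 1216 RPM in the same order.

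Set beside its paralogs, the miR-106b/miR-25 cluster lay near the median miRNA in the stage contrast, and the other clusters above it. Its 6 members had a median stage contrast of -0.18, with 2 above and 4 below 0, whereas TMM gave a median of -0.0003 and DESeq2 size factors one of 0.035, each with 3 above and 3 below. Of the 12 miRNAs of the miR-17/miR-92a cluster 11 were above 0, with a median of 0.70, and of the 10 of the miR-106a/miR-363 cluster all were, with a median of 1.88. The median over the expressed miRNAs was -0.08, and relative to it the clusters stood at -0.09, 0.79 and 1.96. For the medium, the medians were 0.87 for miR-106b/miR-25, 0.47 for miR-17/miR-92a and -0.43 for miR-106a/miR-363, beside 0.42 for the expressed miRNAs. TMM gave 0.46, 0.06 and -0.85, beside 0.004, and DESeq2 size factors 0.50, 0.10 and -0.81, beside 0.04, each with 6 of the 12 miRNAs of miR-17/miR-92a above 0 and 6 below. Relative to the expressed miRNAs the clusters stood at 0.45, 0.04 and -0.85 with library totals and at 0.45, 0.06 and -0.85 under TMM. limma called 0 of all 599 miRNAs tested for either contrast, and so 0 in each of these lists, which does not set the clusters apart. The difference between the clusters was not tested. The mature sequences of miR-19b-3p and miR-92a-3p come from both of these paralogs, and their reads cannot be divided between them. As shares of all miRNA reads without that pair, miR-106a/miR-363 took 0.661% in ES serum, 1.35% in ELA serum, 0.227% in ES 2iL and 1.12% in ELA 2iL, and miR-17/miR-92a took 0.558%, 0.630%, 0.673% and 1.72%. So counted, each paralog was below miR-106b/miR-25 in 3 libraries, with miR-106a/miR-363 above it in ELA serum (1.24% for miR-106b/miR-25) and miR-17/miR-92a in ELA 2iL (1.53%). With all reads of the pair added, miR-106a/miR-363 would take 8.19 to 13.6% and miR-17/miR-92a 8.22 to 14.2%, above miR-106b/miR-25 in each library. In the medians given above the pair was counted with miR-17/miR-92a.

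For the 296 expressed non-members, the pattern over the 4 libraries was compared with that of the summed cluster. These miRNAs were not matched to the cluster in level. Most like it were mmu-miR-30a-5p, mmu-miR-6944-3p, mmu-miR-708-5p, mmu-miR-324-5p and mmu-miR-429-3p. The root mean square difference of their centred log2(RPM + 1) was 0.040, 0.13, 0.13, 0.14 and 0.14. mmu-miR-30a-5p had 5245 RPM in ES serum, 5522 RPM in ELA serum, 9730 RPM in ES 2iL and 6356 RPM in ELA 2iL. All 4 points are shared libraries and the likeness is a description of them. Among the members themselves, the arms of miR-93 differed by 0.21 in this measure and those of miR-25 by 0.34, while the arms of miR-106b differed by 0.62. The closest pair of all members was miR-106b-3p and miR-25-3p, at 0.16.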

How the data were processed

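The authors trimmed adaptors with Trimmomatic, aligned the reads to mm9 with Bowtie, used featureCounts to count reads on the mature miRNAs of miRBase (release 20), and deposited RPM values. How reads that map to several places were treated is not given in the sources used here. Each of the deposited RPM values above 0 was a whole multiple (100%, within 0.001 reads) of the RPM of 1 read, which gave back the reads, and edgeR (4.0.16) and DESeq2 (1.42.0) were run on these as alternatives. A count of 3 reads, taken as the floor, equals 0.372 to 5.11 RPM.

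The test was limma (3.58.1) with additive terms for stage and medium, fitted to log2(RPM + 1) of the 599 miRNAs that reached 10 reads in 2 or more libraries, two-sided, Benjamini-Hochberg adjusted, threshold 0.05. The pseudocount of 1 RPM understates differences of low miRNAs. Differences between 2 libraries have no test, and their exact intervals come from the reads, without the pseudocount. The alternatives were other scalings, pseudocounts, filters and tests.

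The members and lists were chosen with earlier results of these data known. Named were the members, the miRNAs of the paralogous clusters and of shared seeds, and the 5 miRNAs of most similar pattern. Of the 1907 listed miRNAs, 1623 matched a RefSeq name, with all 6 members among them. Positions come from exact matches to mm9 and the gene annotation of that build.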

Additional observations from a re-analysis of the deposited data

Results flagged for a closer look

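miR-106b-3p and miR-25-3p were set aside because their differences had opposite signs in the 2 groups being compared; these differences between groups were not tested, as each rests on 1 library against 1. For miR-106b-3p, ELA minus ES was 0.42 in serum (exact 95% interval 0.33 to 0.51) and -0.17 in 2iL (-0.41 to 0.07), so that the latter less the former was -0.59. The same 4 values give 2iL minus serum as 0.23 in ES cells and -0.36 in ELA, again -0.59 apart. For miR-25-3p, ELA minus ES was 0.08 in serum (0.06 to 0.09) and -0.22 in 2iL (-0.26 to -0.18), and the latter less the former was -0.29. Under TMM scaling the 2iL values of ELA minus ES were 0.08 for miR-106b-3p and 0.03 for miR-25-3p, and both then had the sign seen in serum. For miR-106b-3p, 2iL minus serum was then -0.26 in ES cells and -0.71 in ELA. DESeq2 size factors gave -0.17 and -0.72, so that both stages had the same sign.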

How the results depend on the processing

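Of 108 member contrasts recomputed under the alternatives, 97 kept their direction and their side of the threshold. Of the recomputed differences of a member between 2 libraries, 49 moved beyond their counting interval and 71 did not, and of the recomputed counts and shares 11 moved by over 1.5 times or beyond their interval and 40 did not. The stage contrast of miR-25-3p turned to 0.11 under TMM and in edgeR, 0.14 under DESeq2 size factors and in DESeq2, and 0.016 with totals without the 5 most abundant miRNAs. Its medium contrast turned to -0.27 under TMM and in edgeR and -0.23 under DESeq2 size factors and in DESeq2. The count of members called for the medium went from 0 to 1 (miR-93-3p) with totals without the 5 most abundant miRNAs and without a filter, where 18.2% and 10.8% of all miRNAs tested were called beside 0% before, and no member was called for stage in any alternative. The count of members past the fold limit went from 2 to 1 for ELA minus ES in 2iL under TMM, DESeq2 size factors and totals without the 5 most abundant miRNAs, where miR-93-3p was at -0.86, -0.88 and -0.86. For 2iL minus serum in ELA it went from 2 to 1 under TMM and DESeq2 size factors and to 3 with totals without the 5 most abundant miRNAs (miR-93-5p at 1.02). In ES cells it went from 3 to 2 under these 3 scalings (miR-106b-5p at 0.67, 0.76 and 0.88). The share of all miRNAs past the limit moved as well, from 25.2% to 18.2% for the stage in 2iL, and for the medium from 20.9% to between 11.6 and 23.5% in ELA and from 32.9% to between 18.7 and 25.5% in ES cells. With the 5 most abundant miRNAs left out of the totals, the cluster share was 2.68% in ES serum, 2.57% in ELA serum, 4.20% in ES 2iL and 3.25% in ELA 2iL. Seeds of bases 2 to 7 gave the same families, and TMM gave the same 5 miRNAs of most similar pattern. No replicate block could be fitted, as each group has 1 library, and the stage contrast already sets ELA against ES cells of the same medium. Leaving out a library leaves no residual degree of freedom, and the values are then the differences within a medium or stage given above. In ELA 2iL, the shallowest library, miR-93-3p had 45 reads and miR-25-5p 83, which sets the width of their intervals.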
